A study of Mus musculus with 6 samples.

Results

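The Runx genes and Cbfb were followed through 4 deposited peak lists from EML, an established mouse cell line with blood precursor properties, labelled with the strain B6D2F1; all groups share this 1 line. The members were every listed region whose nearest gene was given as Runx1, Runx2, Runx3 or Cbfb, 140 of 149791 regions and 4 of the 20691 genes named in any list. Cells of the lin-CD34+ population gave the STAT3 and SOX4 ChIP-seq libraries and an ATAC-seq library, which records chromatin accessible to a transposase, and lin-CD34- cells gave the GABPa ChIP-seq library. The populations were separated with magnetic beads and flow sorting, and 2 control libraries, 1 per population, are listed beside them. The labels name no drug and no genetic change. Controls are titled as input although their antibody is given as normal IgG, and no control peak list was used here. Each group was 1 library, so no value below has a spread between replicates and no test between groups could be made. GABPa differed from the other factors in population as well as in antibody. In a sorted population, a peak present in few cells and a weaker peak present in all cells cannot be told apart.

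RUNX proteins are transcription factors that bind DNA through the runt domain, and each pairs with CBFb, the partner encoded by Cbfb, which does not touch DNA itself and strengthens their binding. RUNX1 is needed for blood stem cells to arise in the embryo, RUNX2 is the master regulator of bone formation, and RUNX3 acts in T cells, sensory neurons and epithelium. Each mouse Runx gene has a distal promoter, called P1, and a proximal promoter, called P2, whose transcripts differ in their first exons. STAT3 is activated by cytokine receptors, SOX4 is an HMG-box factor, and GABPa belongs to the ETS family, which recognises GGAA.

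The distal promoters are shown because the STAT3 peak of Runx1 lay on one of them and because a script comparing the 3 windows found a stretch common to all. Sequences are RefSeq promoter windows on GRCm38.p6, the assembly of the build mm10 named for the files, 5′ to 3′ on the gene's strand, and each window runs from 250 bases before to 50 after a RefSeq start. All 4 genes were found in that table, with 6 windows in all. The Runx1 P1 window is chr16:92826025-92826324 on the minus strand, the Runx2 P1 portion chr17:44814578-44814667 on the minus strand and the Runx3 P1 portion chr4:135120473-135120562 on the plus strand. Capitals mark the shared stretch.
Runx1 P1: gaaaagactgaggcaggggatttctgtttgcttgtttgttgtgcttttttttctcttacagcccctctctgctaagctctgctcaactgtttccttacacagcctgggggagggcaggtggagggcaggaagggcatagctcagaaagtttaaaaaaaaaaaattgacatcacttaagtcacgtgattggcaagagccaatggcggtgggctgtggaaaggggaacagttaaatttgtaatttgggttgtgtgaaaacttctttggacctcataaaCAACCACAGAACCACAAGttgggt
Runx2 P1: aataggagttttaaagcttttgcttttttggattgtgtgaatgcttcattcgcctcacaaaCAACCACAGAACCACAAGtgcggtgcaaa
Runx3 P1: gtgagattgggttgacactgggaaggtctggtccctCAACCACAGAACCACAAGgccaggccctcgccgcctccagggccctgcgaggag

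The shared stretch is 18 bases long and holds 2 matches to the RUNX motif TGTGGT, both on the opposite strand to the gene and 8 bases apart. It starts 26 bases after the annotated start of Runx1 and 21 bases after that of Runx2, whereas in Runx3 it starts 136 bases before the annotated start. Of 32851 RefSeq promoter windows, 4 (0.0122%) hold this stretch on either strand. They are those of the 3 Runx genes and that of Gm16225, a noncoding gene next to Runx3. Whether the Gm16225 and Runx3 windows hold the same genomic bases is not shown here. The stretch was found by comparing the 3 Runx windows, so the count is a description and no test. The motif TGTGGT alone occurs on either strand in 16.8% of the windows, and 7 windows hold a pair of matches with this spacing and orientation. The Runx2 window holds another match 80 bases before the start. In Runx1 both matches lie inside the STAT3 peak and inside an ATAC interval, and in Runx3 both lie inside an ATAC interval. In Runx2 the stretch lies 179 bp from the nearest ATAC interval. A match is a description of letters and shows no binding.

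The Cbfb promoter is shown because the STAT3 peak covered 274 of its 300 bases, and the proximal Runx1 promoter because it was open without a listed factor peak. The windows are chr8:105170424-105170723 on the plus strand and chr16:92697280-92697579 on the minus strand. Capitals mark GGAA or its reverse complement, the ETS core.
Cbfb: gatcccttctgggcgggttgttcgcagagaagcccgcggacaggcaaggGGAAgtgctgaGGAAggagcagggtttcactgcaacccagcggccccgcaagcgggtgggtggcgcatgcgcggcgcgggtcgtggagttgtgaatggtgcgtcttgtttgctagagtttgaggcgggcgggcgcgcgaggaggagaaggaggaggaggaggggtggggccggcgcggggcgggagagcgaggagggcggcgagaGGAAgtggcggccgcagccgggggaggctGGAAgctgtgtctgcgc
Runx1 P2: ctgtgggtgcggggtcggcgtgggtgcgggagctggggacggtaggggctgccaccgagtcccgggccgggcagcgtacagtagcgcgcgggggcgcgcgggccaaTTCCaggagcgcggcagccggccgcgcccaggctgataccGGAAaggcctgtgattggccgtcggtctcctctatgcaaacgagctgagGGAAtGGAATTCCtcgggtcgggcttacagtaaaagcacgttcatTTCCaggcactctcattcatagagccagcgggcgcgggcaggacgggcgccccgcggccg

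The distal windows of Runx1 and Runx2 differ in base composition from the proximal windows of Runx1 and Runx3. No Runx2 P2 window was among the 6. Runx1 P1 has a GC content of 45% with 2 CpG dinucleotides, and Runx2 P1 45.3% with 2, at the percentiles 22.0 and 23.1 of all windows. Runx3 P1 is richer, at 63.7% GC with 8 CpG. Runx1 P2 has 69.0% GC with 35 CpG, Runx3 P2 77.3% with 45, and Cbfb 69.7% with 30. No RUNX match was found in the P2 windows of Runx1 and Runx3 or in Cbfb. The ETS core GGAA, which on both strands occurs in 96.0% of all windows, was found 6 times in Runx1 P2, 4 times each in Runx1 P1 and Cbfb, 5 times in Runx2 P1, 2 times in Runx3 P1 and not in Runx3 P2. No window held the 8-letter ETS motif CCGGAAGT (3.89% of all windows), the STAT motif TTCNNNGAA (8.30%) or its form with 1 more base in the gap (6.95%), the SOX motif AACAAT (10.7%) or the GATA motif AGATAA (11.2%) on either strand. The 7-letter RUNX motif TGTGGTT, which contains TGTGGT, matched at the same places as the shorter motif and occurs in 5.27% of all windows.

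**Figure D1:**
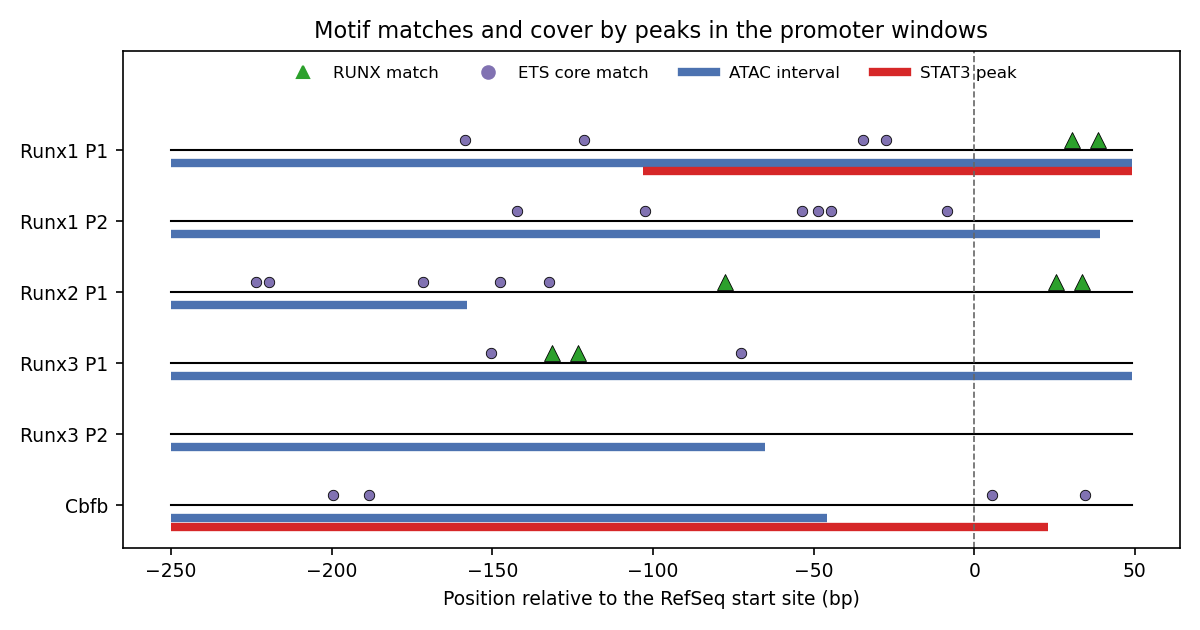
Motif matches and peak cover in the 6 RefSeq promoter windows of the members, by position relative to the start site in bp. Triangles are RUNX matches, circles are GGAA matches, blue bars are ATAC intervals and red bars are STAT3 peaks. The RUNX pair lies under both a STAT3 peak and an ATAC interval only in Runx1 P1, and only Runx1 P1 and Cbfb have STAT3 cover.

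STAT3 peaks were listed at Runx1 and at Cbfb, the genes of one DNA-binding subunit and of the shared partner, and not at Runx2 or Runx3. Within 1000 bp of a transcription start site (TSS), by the authors' distance, 2 of 4 members had a STAT3 peak, against 1.98% of all named genes. At any listed distance the same 2 of 4 members had one, against 4.12% of genes. The STAT3 promoter peaks of Runx1 and Cbfb were already known when these genes were chosen, so the counts describe the members and were not tested.

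The Runx1 promoter peak lay on P1 (chromosome 16, 92825900 to 92826177, mm10), 36 bp downstream of the TSS by its centre and annotated as promoter. It held 40 tags, which are reads counted in the peak (exact 95% Poisson interval 28.6 to 54.5, counting error only). Its score, which is larger for a smaller p-value of the peak caller, was 143.29, and its fold over the caller's background was 24.5. In the STAT3 list of 885 peaks it stood at rank 126 by score, 208 by tags and 360 by fold. The point of highest signal lay 119 bp downstream of the TSS, beyond the end of the printed window. An ATAC interval of 562 bp covered all 278 bp of the peak.

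The other Runx1 peak lay in the intron between P1 and P2 (chromosome 16, 92800829 to 92801165), 25077 bp downstream of the P1 start. It held 35 tags (24.4 to 48.7) with a score of 129.35, rank 196. Its fold of 37.1 ranked 18 of 885, above that of the promoter peak, while the intervals of the tag counts of both peaks overlap. An ATAC interval of 469 bp covered 310 of its 337 bp (92.0%), and another of 538 bp followed within the next kilobase toward P1. An enhancer active in blood stem cells is known between the promoters of mouse Runx1, and whether this peak is that element was not tested. The bases of this peak are not shown, for want of a genome sequence among the sources used here. Only 28 of the 853 genes with a STAT3 peak had 2 or more, and 11 had a promoter peak and another farther away.

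The Cbfb peak (chromosome 8, 105170368 to 105170697) was centred 142 bp upstream of the TSS. It held 48 tags (35.4 to 63.6), the most among the members, with a score of 135.5, rank 163, and a fold of 20.3, rank 540. The 95% intervals of the tag counts of the 3 member peaks overlap. The summit lay 135 bp upstream of the TSS and inside an ATAC interval of 557 bp, which covered 261 of 330 bp (79.1%). That interval ended at position −46 and did not reach the TSS. In all, 3 of 3 member STAT3 peaks overlapped open chromatin, against 78.4% of the list. No SOX4 or GABPa peak was listed near them. The nearest listed SOX4 peak was 579 kb from the Runx1 promoter peak and 41.1 kb from the Cbfb peak. The nearest listed GABPa peak was 941 kb and 28.1 kb away. Positions more than 5000 bp upstream of their nearest TSS are not listed, so an unlisted peak of either factor could lie closer.

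**Figure D2:**
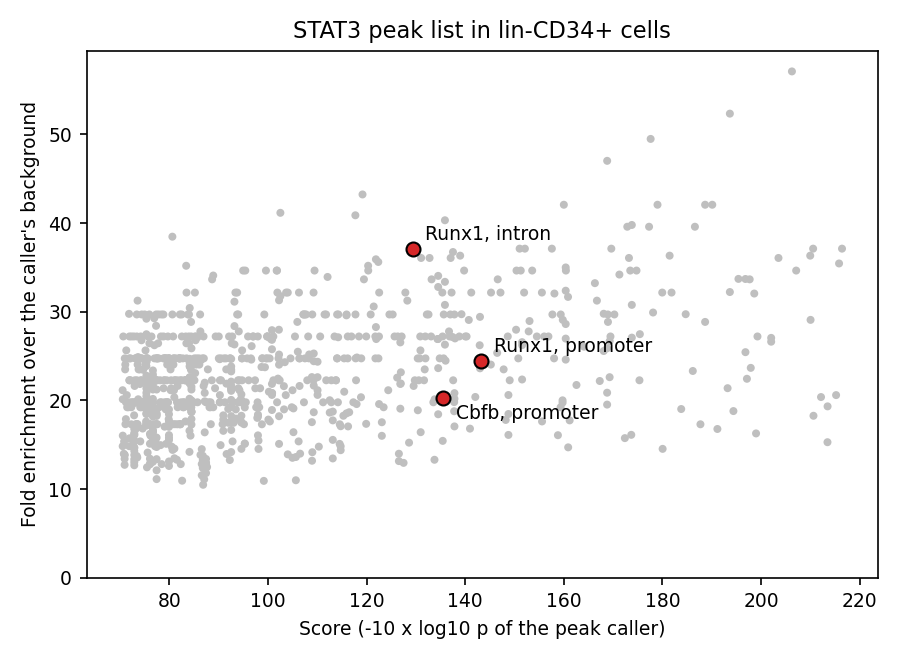
Fold enrichment against score for the 885 STAT3 peaks in lin-CD34+ cells, each point 1 peak, with the 3 member peaks in red. The members have scores of 129.35 to 143.29, above the list median of 92.53, and folds from 20.3 to 37.1 around the list median of 22.3.

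SOX4 and GABPa peaks were listed at Runx2 only, with 1 peak each, and both scored below the median of their lists (64.91 and 99.74). SOX4 had a peak at 1 of 4 members (12.5% of all genes have one) and a promoter peak at 0 of 4 (0.764%). GABPa had a peak at 1 of 4 members (9.59%) and a promoter peak at 0 of 4 (1.54%). At these background shares, 0 of 4 promoters says nothing about the members.

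The SOX4 peak of Runx2 (chromosome 17, 44618603 to 44618753) lay in an intron 117498 bp from the TSS. It held 8 tags (3.45 to 15.8), the lowest tag count in that list and shared by 776 of its 3016 peaks (25.7%). Its fold of 13.6 was the list median, and it had a score of 59.17, rank 2050 of 3016. It overlapped no ATAC interval, the nearest being 2601 bp away, so 0 of 1 was open against 5.4% of the list.

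The GABPa peak of Runx2 came from lin-CD34- cells (chromosome 17, 44739335 to 44740923), centred at −3481 bp from a P2 start and annotated as intronic. It held 18 tags (10.7 to 28.4) over 1589 bp, above the list median of 14 tags. Its fold of 10.6 lay below the list median of 12.2, and its score of 67.49 had rank 1992 of 2525. It overlapped 1 lin-CD34+ ATAC interval, so 1 of 1 was open against 16.8% of the list. That interval was 73 bp wide, lay in a (CA)n simple repeat and covered 4.59% of the peak without its summit. The part of the repeat in this overlap was not tested.

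Open chromatin was listed at all 4 members, with at least 1 ATAC interval within 1000 bp of a TSS at 4 of 4, against 68.2% of all named genes, and at any distance against 98.4%. Distinct intervals numbered 58 at Runx1, 53 at Runx2, 17 at Runx3 and 7 at Cbfb. In the same order the genes span 225, 319, 57.3 and 47.3 kb. Per 100 kb of gene the order was Runx3 with 29.6, Runx1 with 25.8, Runx2 with 16.6 and Cbfb with 14.8 intervals. Among 5691 genes of at least 40 kb, whose median was 9.82, these values stood at the percentiles 94.3, 91.2, 74.6 and 69.3. Summed widths of a gene's assigned intervals equalled 8.39% of gene length at Runx3, 5.81% at Runx1, 4.01% at Runx2 and 3.79% at Cbfb. The median over the same long genes was 2.11%. Widths were not cut at the gene's ends, so the share inside a gene can be lower. At Cbfb, an interval of 557 bp lies wholly before the gene's start. The list gives no tags or score for an interval, so its depth is unknown and no interval carries an error.

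**Figure D3:**
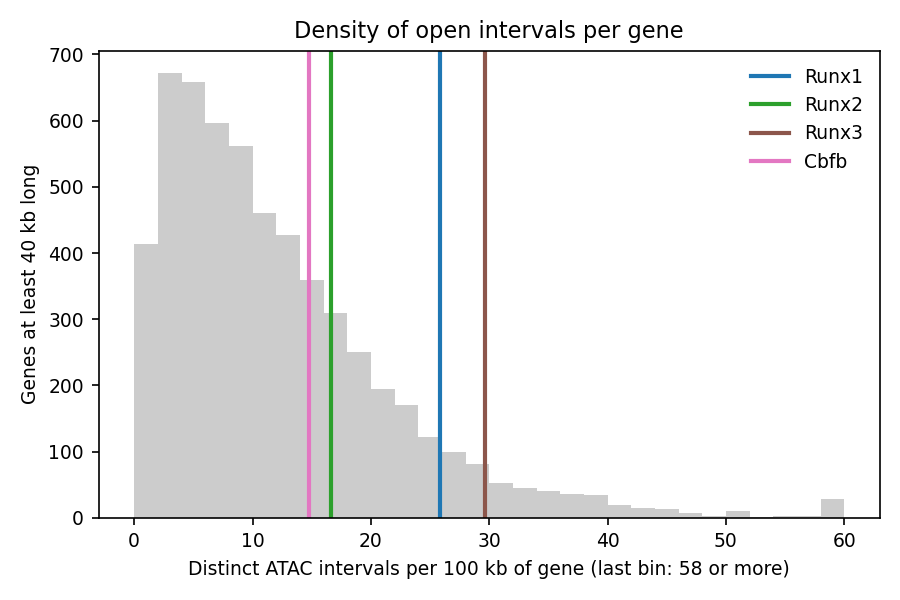
Distinct ATAC intervals per 100 kb of gene (x axis) for the 5691 genes of at least 40 kb (y axis, number of genes), with the 4 members as vertical lines. All 4 lie above the median of 9.82, Runx3 at 29.6 and Cbfb at 14.8.

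At Runx1 both promoters were open. P1 lay in an interval of 562 bp, and P2 in intervals of 676 bp and, 511 bp downstream, 164 bp, with a CpG island interval of 638 bp centred at −1390 bp from P2. The 2 widest Runx1 intervals were not at a promoter. One of 735 bp lay 3895 bp downstream of the P1 start, and one of 755 bp (chromosome 16, 92620750 to 92621504) lay in an intron, 76202 bp from P2 and 204947 bp from P1. The latter was entered 5 times in the list, the most for any Runx1 interval. Of the 58 intervals 50 were intronic, 21 were nearest to the P1 start and 37 to the P2 start. The farthest lay at −2066 bp from P1 and, at the gene's end, 96266 bp downstream of P2.

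P1 and P2 of Runx1 lie 129 kb apart, and no interval was listed over 65.8 kb between them. The lists hold nothing more than 5000 bp upstream of its nearest TSS, and 59.4 kb of this intron are in that position relative to P2. The absence of intervals there therefore says nothing about openness. The same limit leaves out 30.5 kb of Runx2 upstream of its P2, and everything beyond 5000 bp upstream of the 4 genes. Without the stretches of 59.4 and 30.5 kb the density of Runx1 was 35.1 and that of Runx2 18.4 intervals per 100 kb. The median and percentiles over long genes use full gene lengths, so these densities have no matching background. Starts of neighbouring genes that do not overlap a Runx gene were not considered, and Cbfb was not examined for such a stretch. Its neighbour D230025D16Rik begins 7.16 kb past its end, so part of Cbfb may be unlisted and its density too low.

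At Runx2 the proximal promoter carried the widest open chromatin of any member. An interval of 874 bp covered the P2 start and one of 1033 bp, annotated to a CpG island, followed 1179 bp downstream, each entered 5 times. The distal promoter had 1 interval of 214 bp, centred 94 bp upstream of the most distal start, which covered 93 of the 300 bases of the RefSeq P1 window and not its start. Of the 53 intervals, 38 lay over 50 kb from a TSS, among them one of 663 bp at 81471 bp and a pair of 514 and 630 bp at 128647 and 129917 bp, in the last exon of a noncoding transcript. The farthest, at 238294 bp, was 73 bp wide. Runx2 overlaps Supt3, which encodes a histone acetyltransferase complex subunit, and 6 further intervals inside Runx2 were assigned to Supt3.

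At Runx3 a single interval of 863 bp covered the whole P1 window, and it was the widest of that gene. The authors' distances use only the distal Runx3 start. The RefSeq P2 window (chromosome 4, 135152295 to 135152594) was covered over 186 of 300 bases by an interval of 340 bp listed 31665 bp from the distal start and annotated to a CpG island. The next widest intervals, of 609 and 482 bp, lay 39240 and 8524 bp downstream, the first in a Charlie4a DNA transposon remnant. The cover of the P2 window ended at position −65 and did not reach the P2 start. Runx3 thus had an open region in both promoter windows and no listed peak of any of the 3 factors.

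At Cbfb the listed open chromatin was concentrated around the start, although no listed interval contained the start itself. Intervals toward the gene's end may be missing because of the upstream limit. The intervals of 557, 464 and 336 bp lay within 1000 bp of the TSS and made up 75.6% of its 1795 open bases, against 10.7% at Runx1, 8.50% at Runx2 and 17.9% at Runx3. With the RefSeq P2 start of Runx3 counted as well, its share was 27.5%, and those of the other genes did not change. The other 4 intervals were 73 to 176 bp wide, and the farthest lay 18396 bp downstream. Away from promoters the median width was 162 bp at Runx1, 166 bp at Runx2, 155 bp at Runx3 and 94.5 bp at Cbfb, against 123 bp for all such intervals. The share of intervals in annotated repeats was 12.1% at Runx1, 20.8% at Runx2 and 11.8% at Runx3, against 21.0% of all intervals, and 2 of 7 at Cbfb.

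**Figure D4:**
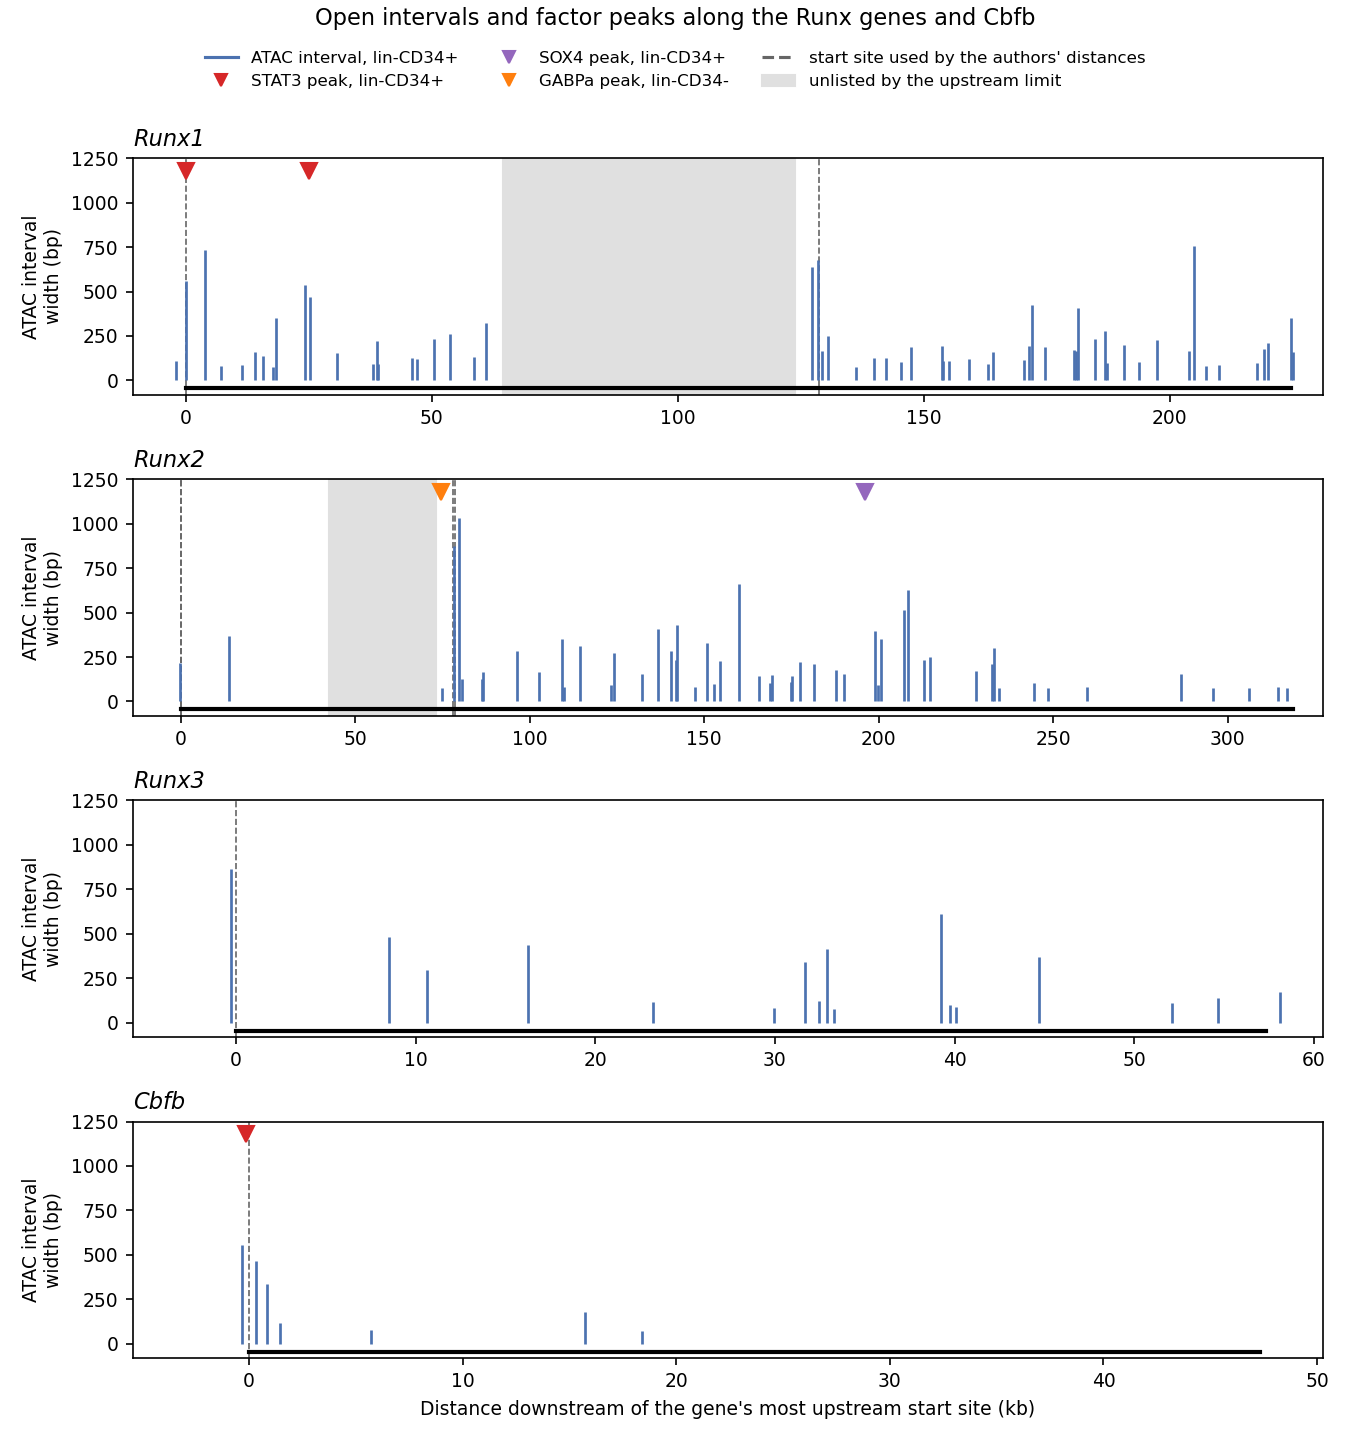
ATAC interval width in bp (blue lines) along each gene, by distance in kb downstream of the most upstream start site, with factor peaks as triangles, start sites as dashed lines, the gene as a black bar and stretches of Runx1 and Runx2 that the lists leave out in grey. Cbfb was not examined for such a stretch. STAT3 triangles stand at Runx1 and Cbfb, SOX4 and GABPa triangles at Runx2, and none at Runx3.

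**Figure D5:**
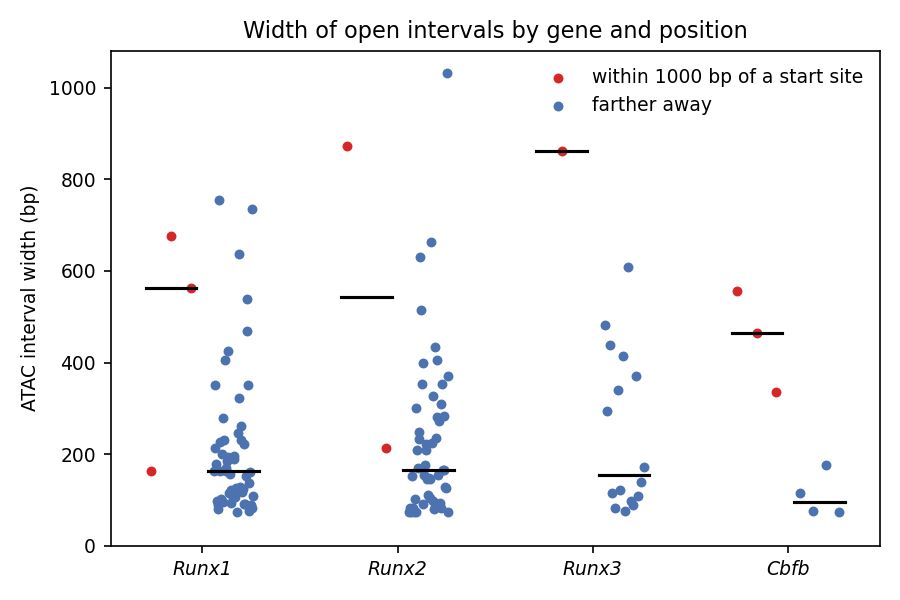
Width in bp of every distinct ATAC interval by gene, each point 1 interval, within 1000 bp of a start site (red) or farther away (blue), with the median as a black line. Away from start sites the medians are 162, 166, 155 and 94.5 bp in the order plotted, and the widest interval, of 1033 bp, lies 1179 bp from the Runx2 P2 start.

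The neighbourhood of the 3 Runx genes is alike: the nearest protein-coding gene on one side is Clic6 for Runx1, Clic5 for Runx2 and Clic4 for Runx3, all of the chloride intracellular channel family. Clic4 had 2 promoter intervals in the ATAC list, and Clic6 and Clic5 had none. None of the 3 had a listed STAT3, SOX4 or GABPa peak. Next to Cbfb, the carboxylesterase gene Ces4a had 1 SOX4 and 1 GABPa peak, neither in its promoter.

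Genes that act with RUNX proteins were examined as a list of 30 cofactor genes. Their promoters were open in 28 of 30 cases (93.3%), against 68.2% of all named genes, the exceptions being Tle2, a Groucho corepressor, and Yap1, the Hippo pathway effector. None of the 30 had a promoter peak of STAT3, SOX4 or GABPa, which 1.98%, 0.764% and 1.54% of all named genes have. At these shares the absence says little about the cofactor genes. At any distance 2 of 30 had a STAT3 peak (6.67%, against 4.12% of all genes): Tle3, another Groucho corepressor, with 26 tags and a fold of 24.7 in an intron 5581 bp from the TSS, and Smad3, a TGF-beta effector, with 29 tags and a fold of 19.2. Both peaks overlapped open chromatin, as did 78.4% of the STAT3 list. SOX4 peaks were nearest to 3 cofactor genes (10%, against 12.5%), Hipk2 with 16 and 10 tags, Cbfa2t2 with 10 and Hdac1 with 12. These SOX4 peaks lay in annotated repeats, except the Hipk2 peak with 10 tags. GABPa peaks were nearest to 3 (10%, against 9.59%), Tle4 with 14 tags, Kmt2a with 15 and Ncor1 with 16, all in annotated repeats. The shares for each factor are near the background. None of these SOX4 and GABPa peaks overlapped an ATAC interval, against 5.4% of the SOX4 list and 16.8% of the GABPa list. With so few peaks this says little about the cofactor genes.

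Of 30 genes listed as RUNX targets from general knowledge, 22 had an open promoter (73.3%), against 68.2% of all named genes. That background holds only genes that a list names, and 27 of the 30 targets are among them. Shares of the 30 are therefore low beside it. Those without one were Csf1r, Il3, Cd4, Ibsp and Col10a1, and Zbtb7b, Bglap and Mmp13, which no list names. The only factor peak in a target promoter was that of STAT3 at Nfe2, a factor of red cell and platelet development, 181 bp upstream of the TSS with 36 tags and a fold of 13.9, which makes 1 of 30 genes against a background of 1.98%. STAT3 also had a peak in an intron of Meis1, a stem cell homeobox gene, with 33 tags and a fold of 27.2. These STAT3 peaks at Nfe2 and Meis1 overlapped open chromatin, as did 78.4% of the STAT3 list. SOX4 had peaks at Erg, an ETS factor, with 11 tags, Meis1 with 16 and Myh10, a nonmuscle myosin gene, with 8. GABPa had 2 peaks at Myh10 with 17 and 19 tags and 1 at Erg with 17. At any distance STAT3 had a peak at 6.67% of the 30 targets (4.12% of all named genes), SOX4 at 10% (12.5%) and GABPa at 6.67% (9.59%). None of these SOX4 and GABPa peaks overlapped an ATAC interval, against 5.4% of the SOX4 list and 16.8% of the GABPa list. With so few peaks this says little about the targets.

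The genes most like each member were found by the distance between log2(count + 1) values over 5 counts, those of STAT3 promoter peaks, other STAT3 peaks, SOX4 peaks, GABPa peaks and ATAC intervals. Nearest to Runx1 was Trappc9, a trafficking complex subunit, with 1 promoter and 1 other STAT3 peak and 34 ATAC intervals at a distance of 0.75, then Atg10 and Pdzrn3 at 1.00. Besides Runx1, 4 genes had exactly its factor peak counts. Nearest to Runx2 were the axon guidance receptor gene Robo1 with the same counts, Sox6 and Fgf14, and 259 genes shared its factor peak counts. Cbfb had the same counts as Actr3 and Arpc2, of the Arp2/3 complex, and Eprs, a tRNA synthetase gene, and 285 genes shared its factor peak counts. Runx3 shared the absence of any factor peak with 16023 genes, and these were left out of the comparison, which took only genes with a factor peak. Among the latter, 39 were equally near to Runx3 at a distance of 1, of which A330050F15Rik, Abcg8 and Adtrp come first in alphabetical order.

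The labelled cell type was set against marker genes, beside the 68.2% of all named genes with an open promoter. Of these markers, 8 of 8 progenitor genes (Kit, Cd34, Gata2, Tal1, Lmo2, Ly6a, Flt3 and Myb) had an open promoter in lin-CD34+ cells, and 0 of 5 neural genes. Among the other markers 1 of 5 erythroid, 3 of 5 neutrophil and monocyte, 3 of 5 lymphoid, 5 of 5 megakaryocyte and mast cell and 2 of 5 bone genes were open, and counts of 3 of 5 lie near the background. Only 4 of the 5 erythroid and 4 of the 5 bone genes are named in a list. Openness does not measure expression, and no expression data were used here.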

How the data were processed

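Peak lists of 1 library each came from EML cells. Build mm10 and the tools MACS2, HOMER, Bowtie2, Picard, SAMtools and CASAVA 1.7 are named, per the submitters' processing notes, without role or order. The sources used here give neither library depth nor whether ATAC reads were shifted. Per the file headers, the deposited tag counts are reads per peak, the score is −10 times log10 of the caller's p-value, the fold is the caller's ratio over its background, and the false discovery rate is in percent. Positions and distances are in bp as deposited. Median tags per peak were 30 for STAT3, 10 for SOX4 and 14 for GABPa, and scores and folds serve only to rank peaks within a list.

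Repeated ATAC entries were reduced to 143365 distinct intervals from 195295. Overlap needed 1 bp. Start sites came from the authors' distances, and gene lengths from a RefSeq table on GRCm38.p6, which held 19841 of the 20691 gene names. Poisson intervals are exact and cover counting error only. No tests were made. Alternatives covered the promoter window, score, repeats, overlap rule, gene assignment and merging. The 2 gene lists and the markers, the members and the rule for named genes (every factor peak, the widest, farthest and promoter intervals, list genes with a peak, neighbours and the 3 most similar genes) were chosen with earlier results of these data known. The length minimum of 40 kb, the shared stretch, the added Runx3 start and the densities without unlisted stretches were chosen after values were seen. Python 3.11.15 was used with pandas 2.3.3, numpy 2.4.6, matplotlib 3.10.9 and scipy 1.17.1, and the steps were tested on simulated data.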

Additional observations from a re-analysis of the deposited data

How the results depend on the processing

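Of 112 recomputed values, 102 stayed within 1.5 times the reported one, and 28 of 37 results did so under every alternative tried. Many of these values are counts of 0 under rules that can only remove peaks. Such counts could not change and do not measure stability. STAT3 at Runx1 and Cbfb kept 2 promoter peaks under each window, score and repeat rule, and its 3 overlaps with ATAC held under each overlap rule. Within 5000 bp of a TSS, members with a GABPa peak went from 0 to 1 (Runx2), and cofactor genes from 0 to 2 for SOX4 and from 0 to 2 for GABPa. With peaks above the median score only, the SOX4 and the GABPa peak at Runx2 and the STAT3 promoter peak among RUNX targets each went from 1 to 0. The overlap of the GABPa peak with ATAC went from 1 to 0 when 50% of the peak or its centre had to be covered. With all entries counted, Cbfb had 13 in place of 7 intervals. With the RefSeq P2 start added, an alternative chosen after seeing the data, the promoter share of open bases at Runx3 went from 17.9% to 27.5%. Assignment by position put 59 intervals in Runx2 and changed no other member. No paired analysis was possible because each group has 1 library.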
